A study of Mus musculus with 11 samples.

Results

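Replication-dependent histone genes were followed in mouse mammary tumour cells driven by Wnt1, from primary tumours through residual lesions to recurrent tumours. The members were the genes on the array whose current symbol starts with H2ac, H2bc, H3c or H4c and a number, or that once carried a name starting with Hist1h, Hist2h or Hist3h. The rule found 39 of 24479 probe sets, each with 1 log2 signal per array. They were 13 H2B, 11 H2A, 7 H3, 3 H4 and 5 linker H1 genes, of which 37 code for protein and 2, H2af-ps2 and H2bu1-ps, are listed as transcribed pseudogenes. The same rule took 70 genes of the RefSeq table. The 31 others, among them 9 H4 genes and 10 H2A genes, had no probe set of their own in the values used here.

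The tumour cells carry MMTV-rtTA;TetO-Wnt1, transgenes through which doxycycline turns on Wnt1 in mammary epithelium, where the MMTV promoter is active. They were labelled with H2B-eGFP, a fluorescent histone fusion, grew at the orthotopic site of female nu/nu mice, which lack a thymus and so most T cells, and were isolated as the fraction titled GFP plus. The 4 primary arrays hold cells of untreated tumours, grown on doxycycline. The 3 residual arrays hold cells taken 28 days after doxycycline withdrawal, and the 4 recurrent arrays cells of tumours that came back after Wnt1 inhibition, with no time given. Age is not given for any group, and the labels do not say whether cells or animals were pooled or whether each array stands for its own animal. P-values therefore rest on the spread among these arrays, part or all of which may be technical.

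Histones package DNA: an octamer of H2A, H2B, H3 and H4 forms the nucleosome core, and H1 binds the linker DNA. Cells need a full new set each time they copy their DNA, and the replication-dependent genes, which lie in clusters and have no introns, supply it in S phase. Their mRNAs typically end in a stem-loop bound by Slbp in place of a poly(A) tail and are destroyed when replication stops, although some of these genes also give polyadenylated mRNA in cells that no longer divide. The genes come in many near-identical copies. A probe set of 1 copy may therefore also read others, and a signal then cannot be given to 1 copy with certainty.

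Promoters of 5 members are shown because their genes had the largest falls of their family in residual cells or, for H2bc13 and H2bc15, because RefSeq lists them as synonyms of H2bc7. That of H2bc7 was taken by a rule on the largest H2B fall, and the others were chosen after the values were seen. Each run covers the 250 bases before the start of the gene, in the gene's own direction, from RefSeq on GRCm38.p6. Capitals mark CCAAT and TATAAA, which bind CCAAT-box factors and the TATA-binding protein, and the octamer ATTTGCAT that POU factors bind. Both strands were searched. The windows are chr13:23574208-23574457 (minus strand), chr13:21753826-21754075 (plus strand), chr13:21716184-21716433 (minus strand), chr13:23750838-23751087 (plus strand) and chr13:21717378-21717627 (plus strand).
H2bc7: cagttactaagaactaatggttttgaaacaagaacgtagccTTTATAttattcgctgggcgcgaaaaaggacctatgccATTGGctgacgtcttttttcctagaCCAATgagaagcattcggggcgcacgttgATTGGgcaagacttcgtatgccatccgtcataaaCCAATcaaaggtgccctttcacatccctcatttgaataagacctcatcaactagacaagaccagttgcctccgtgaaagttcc
H2bc15: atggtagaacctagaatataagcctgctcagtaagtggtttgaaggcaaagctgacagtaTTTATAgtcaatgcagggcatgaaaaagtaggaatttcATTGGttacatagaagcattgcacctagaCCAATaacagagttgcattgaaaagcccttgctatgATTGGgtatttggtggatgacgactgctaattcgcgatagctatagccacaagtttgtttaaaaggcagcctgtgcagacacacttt
H2bc13: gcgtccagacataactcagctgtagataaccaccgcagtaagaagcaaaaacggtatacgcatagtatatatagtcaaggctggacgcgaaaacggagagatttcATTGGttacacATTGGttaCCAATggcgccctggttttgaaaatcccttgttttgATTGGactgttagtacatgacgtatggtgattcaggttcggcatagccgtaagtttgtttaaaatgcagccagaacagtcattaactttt
H2ac4: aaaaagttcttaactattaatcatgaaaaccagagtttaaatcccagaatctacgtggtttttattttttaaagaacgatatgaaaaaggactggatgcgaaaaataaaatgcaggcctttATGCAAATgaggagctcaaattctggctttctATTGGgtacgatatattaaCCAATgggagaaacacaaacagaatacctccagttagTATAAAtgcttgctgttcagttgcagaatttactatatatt
H3c10: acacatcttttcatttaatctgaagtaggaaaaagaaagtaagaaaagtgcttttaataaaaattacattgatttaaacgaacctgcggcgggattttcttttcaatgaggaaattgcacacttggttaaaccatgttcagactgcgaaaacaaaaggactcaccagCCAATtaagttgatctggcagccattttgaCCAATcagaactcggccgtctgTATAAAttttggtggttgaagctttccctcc

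All of these windows hold CCAAT, and that of H2ac4 alone among them holds the octamer. In 300-base windows reaching 50 bases past the start, available for 33 members, CCAAT was found in 30 of 33 members against 37.4% of 32851 RefSeq promoters, and the 3 H4 members were those without it. TATAAA was found in 21 of 33 members against 13.6% of promoters. The octamer was in 11 of 33 members, against 1.74% of promoters: 6 of 10 H2A and 5 of 10 H2B genes held it, and 0 of 5 H3 and 0 of 5 H1 genes did. The motifs did not overlap each other in any member. Windows of divergent neighbours such as H2ac22 and H2bc22 share bases, so their matches are partly the same letters. A match is a run of letters and not a shown binding site.

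Across the series 23835 named genes were tested with limma, and those with an adjusted p under 0.05 after Benjamini-Hochberg adjustment count as called. Beside each level stands the background range, given by 1083 olfactory receptor genes, which mammary cells are not known to use: their 95th percentile was 4.00 to 4.03 on the primary arrays, 4.35 to 4.39 on the residual arrays and 4.06 to 4.12 on the recurrent arrays. Of the 39 members, 12 lay above it on all 11 arrays and 9 at or under it on every array. The 9 were H1f6, H2ac8, H2af-ps2, H2bc1, H2bc22, H2bu1-ps, H2bu2, H3c7 and H3c11, among them the testis histones H1f6 and H2bc1. Wnt1 itself, with a mean of 3.07 over the 11 arrays, lay in that range and differed by 0.086 between residual and primary cells (limma adjusted p = 0.719), so its probe set does not check the labels. Of 12 epithelial markers, Krt8 stood at 10.08 ± 0.071 (SD, n = 4) in primary cells. Krt18, Cldn3, Krt14, Cdh1 and Trp63 also had primary means above the background range. The primary means of Epcam (3.29), Krt19 (3.75), Cldn4 (3.85), Cldn7 (3.49), Elf5 (3.02) and Krt5 (3.88) lay in it. With 3 or 4 arrays a group, their number limits the precision.

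Histone genes were lower in residual than in primary cells, and the largest falls were in H2B, H2A and H3. Of the 39 members 13 fell and 0 rose, where 12.4% of all genes were called, 7.61% as lower and 4.81% as higher. By family, 5 of 13 H2B, 5 of 11 H2A, 1 of 7 H3, 0 of 3 H4 and 2 of 5 H1 genes fell. The median log2 fold change over the members was -0.44, against 0.030 over all genes tested, and 33 of 39 values were negative. The groups of arrays did not overlap for 17 members, all lower in residual cells, against 13.7% of all genes. By old cluster name 10 of 30 Hist1 genes fell, 3 of 6 Hist2 genes and 0 of 3 Hist3 genes. In such samples, fewer dividing cells and less histone mRNA per cell cannot be told apart.

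**Figure D1:**
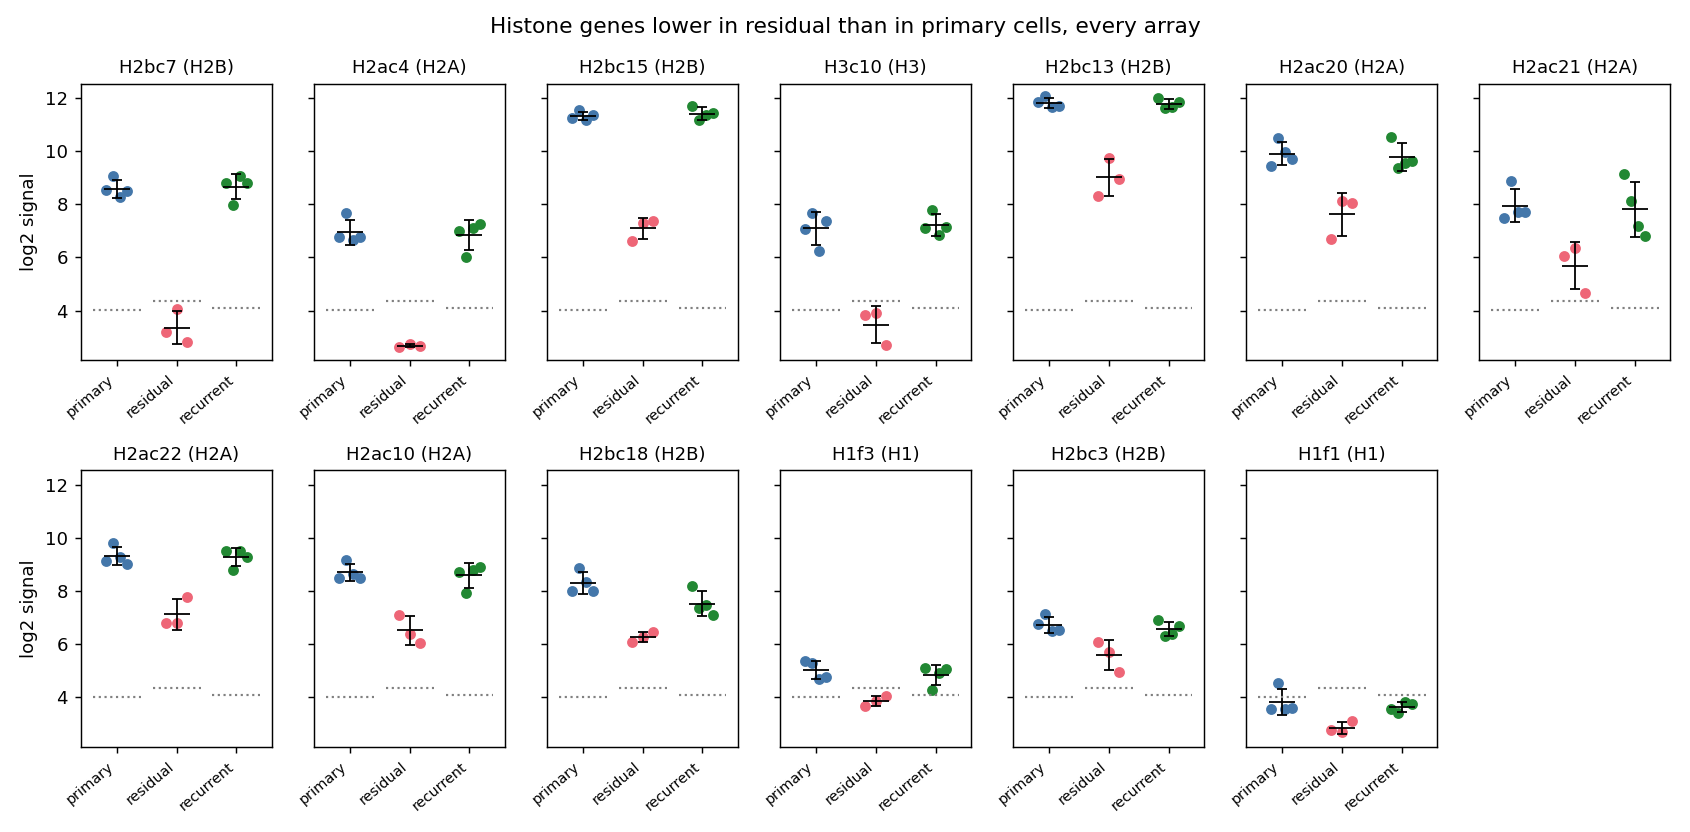
Log2 signal (vertical axis) on every array for the 13 histone genes that were lower in residual than in primary cells, ordered by the size of the fall, with 4 primary, 3 residual and 4 recurrent points each; bars give the group mean and SD, and dotted lines the mean 95th percentile of olfactory receptor genes in each group. Residual points lie below all primary points of the same gene, and for H2bc7, H2ac4, H3c10, H1f3 and H1f1 all of them lie under the dotted line.

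Among the H2B genes the largest fall was that of H2bc7. Its log2 signal was 8.55, 9.06, 8.26 and 8.48 in the primary arrays, 3.20, 4.05 and 2.84 in the residual arrays and 8.81, 7.99, 9.05 and 8.81 in the recurrent arrays. All residual arrays lay under the background range's upper end, far below every other array. H2bc7 fell by 5.22 (SE 0.32, limma adjusted p = 1.71e-06). Since the residual level is at background, the fall may be larger than measured.

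H2bc15 stayed readable in residual cells. It stood at 11.23, 11.52, 11.16 and 11.34 in primary, 6.64, 7.28 and 7.38 in residual and 11.71, 11.15, 11.35 and 11.42 in recurrent arrays. Residual arrays were lowest by a wide margin, and the primary and recurrent arrays overlapped. H2bc15 fell by 4.22 (SE 0.19, limma adjusted p = 3.42e-07), the smallest adjusted p of any member.

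H2bc13 had the highest mean signal of the members. Its arrays read 11.83, 12.06, 11.67 and 11.69 in primary cells, 8.32, 9.73 and 8.96 in residual cells and 11.99, 11.60, 11.64 and 11.83 in recurrent cells. Residual cells thus still gave a bright signal, though each array was below all primary arrays. H2bc13 fell by 2.80 (SE 0.26, limma adjusted p = 5.14e-05).

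H2bc18 and H2bc3 also fell. H2bc18 was 7.99, 8.85, 8.35 and 8.01 in primary and 6.08, 6.28 and 6.46 in residual arrays, and fell by 2.03 (limma adjusted p = 0.000525). H2bc3 ran from 6.48 to 7.14 in primary and 4.97 to 6.08 in residual arrays and fell by 1.14 (limma adjusted p = 0.0133). Both kept every residual array above the background range and apart from the primary arrays; they are named after their values were seen.

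Other bright H2B genes were not called. H2bc4 stood at 8.91, 9.41, 8.99 and 8.85 in primary arrays and 8.59, 8.63 and 9.35 in residual arrays, which overlapped, with a difference of -0.18 (95% interval -1.36 to 0.99, limma adjusted p = 0.876). Its recurrent arrays were spread more widely, at 7.96, 8.25, 9.98 and 10.57. H2bc8 varied most within groups, from 4.49 to 7.85 in residual and 3.41 to 7.73 in recurrent arrays, so that the interval of its residual difference, -2.46 to 1.89, reaches from a large fall to a large rise. H2bc6, near background, differed by -0.030 (limma adjusted p = 0.970).

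In the H2A family H2ac4 fell furthest. It read 6.76, 7.66, 6.65 and 6.76 in primary, 2.63, 2.74 and 2.66 in residual and 6.99, 6.02, 7.10 and 7.27 in recurrent arrays. All residual arrays lay in the background range, and primary 2 stood above the other primary arrays. H2ac4 fell by 4.28 (SE 0.30, limma adjusted p = 5.78e-06).

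H2ac20 and H2ac22 are the brightest H2A genes here. H2ac20 gave 9.45, 10.50, 9.96 and 9.72 in primary arrays and 6.68, 8.14 and 8.04 in residual arrays and fell by 2.29 (SE 0.39, limma adjusted p = 0.00276). H2ac22 gave 9.14, 9.79, 9.27 and 9.03 and 6.79, 6.79 and 7.79 and fell by 2.19 (SE 0.28, limma adjusted p = 0.000449). Their primary and residual arrays did not overlap.

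H2ac21 and H2ac10 fell by similar amounts. H2ac21 went from 7.47, 8.86, 7.71 and 7.71 in primary arrays to 6.04, 6.36 and 4.68 in residual arrays and fell by 2.24 (SE 0.56, limma adjusted p = 0.0221). This call was lost without primary replicate 2 (adjusted p = 0.0624) and without residual replicate 3 (adjusted p = 0.0922). H2ac10, named after its values were seen, ran from 8.48 to 9.18 in primary and 6.06 to 7.11 in residual arrays and fell by 2.18 (limma adjusted p = 0.000661).

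Of the H2A genes not called, H2ac11 differed by -1.62 (adjusted p = 0.0706) and H2ac6 by -0.92 (adjusted p = 0.0671, limma). H2ac6 passed without residual replicate 3 (adjusted p = 0.0281) and in 2 other settings (0.0433 and 0.0462), and H2ac11 without recurrent replicate 3 (adjusted p = 0.00994), in the fit of only the 2 groups (0.0122) and with dim genes left out (0.0471). H2aw, of the Hist3 group, was the member with the largest positive value, 0.82 (95% interval 0.013 to 1.63, limma adjusted p = 0.187); without residual replicate 1 it was 1.25 with an adjusted p of 0.0386. The other Hist3 members, H2bu2 and H2bu1-ps, were in the background range on every array.

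In the H3 family 1 gene fell. H3c10 read 7.08, 7.68, 6.23 and 7.37 in primary, 3.84, 3.91 and 2.70 in residual and 7.11, 7.79, 6.84 and 7.13 in recurrent arrays. The residual arrays, all in the background range, lay far under the others. H3c10 fell by 3.61 (SE 0.38, limma adjusted p = 0.000103).

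None of the other H3 genes passed. H3c14 was 4.71, 6.64, 4.45 and 5.66 in primary and 4.71, 5.27 and 5.94 in residual arrays, which overlapped, and differed by -0.060 (95% interval -1.11 to 0.99, limma adjusted p = 0.959). H3c15 differed by -1.08 (adjusted p = 0.376) and H3c8 by -0.60 (adjusted p = 0.242, limma). The means of H3c8, 3.37 in primary and 2.77 in residual cells, lay in the background range, so its fall may be understated. H3c1 was above the background range on primary arrays 2 and 3 only, at 5.82 and 4.02.

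None of the H4 genes changed between these groups in the test, with 0 of 3 at an unadjusted p under 0.05. H4c12, the brightest, stood at 7.61, 7.95, 7.77 and 7.52 in primary and 6.94, 7.76 and 7.64 in residual arrays, which overlapped. Its difference was -0.27 (95% interval -0.77 to 0.24, limma adjusted p = 0.530). H4c9 stood at 4.17, 4.09, 4.25 and 4.06 and 3.75, 3.79 and 4.50 and differed by -0.12 (adjusted p = 0.887), close to background, and H4c8 by -0.31 (adjusted p = 0.803, limma). RefSeq holds 12 H4 genes of this rule, and 3 were measured.

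Of the 5 linker histone genes 2 fell, with a median log2 fold change over the 5 of -0.96. H1f3 was 5.38, 5.29, 4.71 and 4.76 in primary and 3.69, 3.87 and 4.05 in residual arrays, all of the latter in the background range, and fell by 1.16 (SE 0.23, limma adjusted p = 0.00729). H1f1 was 3.57, 4.55, 3.55 and 3.62 and 2.78, 2.69 and 3.10, under the background range's upper end on all but primary array 2, and fell by 0.96 (SE 0.24, limma adjusted p = 0.0199). The H1f1 call was lost without residual replicate 1 (adjusted p = 0.0621) and without residual replicate 2 (adjusted p = 0.0742), and the gene is left out by a filter on dim signals.

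H1f2, the brightest linker gene, read 8.35, 8.79, 8.35 and 8.04 in primary and 7.30, 6.60 and 8.27 in residual arrays, and residual array 3 reached the primary range. Its difference of -0.995 did not pass (95% interval -1.79 to -0.20, limma adjusted p = 0.104), but did without residual replicate 3 (adjusted p = 0.0200). H1f4 differed by -0.44 (limma adjusted p = 0.492).

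**Figure D2:**
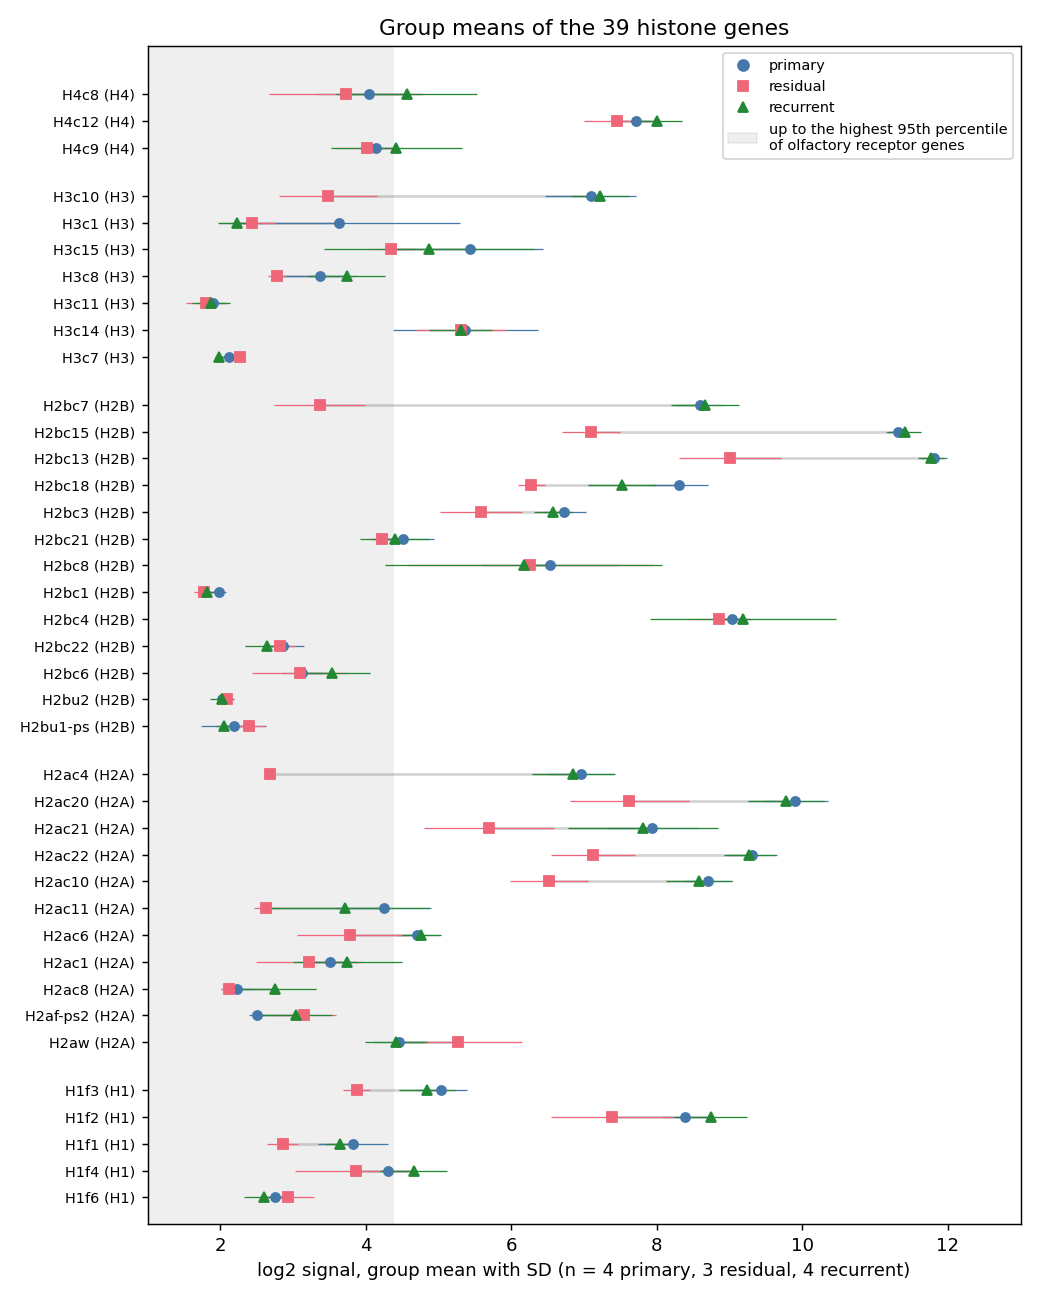
Group mean of the log2 signal (horizontal axis) with SD for each of the 39 histone genes, by family (vertical axis), in primary (circles), residual (squares) and recurrent cells (triangles); the grey band ends at 4.39, the highest 95th percentile of olfactory receptor genes on any array. Residual means stand left of the others in the genes that fell, whose primary and recurrent means lie closer to each other than to the residual mean, and many uncalled genes lie in the grey band.

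Copies that RefSeq names as synonyms of one another were set side by side. There were 16 members with such copies and 23 without, among the latter every H2A gene. This grouping rests on names alone. Sequences were not compared, so members without a listed copy may still have near-identical ones. H2bc7, H2bc13 and H2bc15 all fell, with log2 fold changes of -5.22, -2.80 and -4.22. Their residual means were 3.36, 9.01 and 7.10, so these probe sets did not give 1 shared signal. The fourth gene so listed, H2bc11, had no probe set of its own in the values used here. H2bc4, H2bc6 and H2bc8 gave 0 calls of 3, with values from -0.28 to -0.030. Of H3c1, H3c8, H3c10 and H3c11, 1 of 4 fell, H3c10, while H3c11 was in the background range on every array. H3c7, H3c14 and H3c15 gave 0 calls of 3, and RefSeq lists 8 genes in their group. The 3 H4 members belong to 1 group of 10 genes. How far the probe sets of a group read each other's transcripts, or that of the H2B-eGFP fusion, was not tested.

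A total of 6 H2A and H2B pairs that follow each other in RefSeq order had both genes on the array. In 1 pair, H2ac4 and H2bc3, both genes fell. In 2 pairs only the H2A gene was called as lower: H2ac20, with H2bc21 at -0.29 (limma adjusted p = 0.570), and H2ac22, with H2bc22 at -0.041 (limma adjusted p = 0.929). H2bc21 was in the background range on all residual arrays and H2bc22 on every array, so a fall of either could hardly be read. By promoter letters, 13 of 13 members that fell held CCAAT, 10 of 13 TATAAA and 4 of 13 the octamer. Of the 20 other members with a promoter, 17 held CCAAT, 11 TATAAA and 7 the octamer. These are counts of letters with no test.

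No histone gene passed the test between recurrent and primary cells. Of the 39 members 0 were called by limma, where 1.8% of all genes were called, and 2 had an unadjusted p under 0.05. The median log2 fold change was -0.046, against -0.0067 over all genes. For the members with the largest falls in residual cells, the 95% interval of the recurrent difference was -0.56 to 0.72 for H2bc7, -0.30 to 0.49 for H2bc15, -0.73 to 0.50 for H2ac4 and -0.63 to 0.89 for H3c10. A test that misses the threshold does not show equal levels.

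The 2 members with an unadjusted p under 0.05 were both lower in recurrent cells. H2bc18 was 8.18, 7.37, 7.46 and 7.09 in recurrent arrays and differed from primary by -0.78 (95% interval -1.32 to -0.24, limma adjusted p = 0.161), with recurrent array 1 overlapping the primary arrays. H3c1 was in the background range on all recurrent arrays, 1.91 to 2.53, and differed by -1.40 (limma adjusted p = 0.349). H2bc4 differed by 0.15 with a wide interval, -0.94 to 1.24, since recurrent arrays 3 and 4 were above every primary array and arrays 1 and 2 below. H2bc13 differed by -0.046 (95% interval -0.58 to 0.49) and H2ac20 by -0.13 (95% interval -0.92 to 0.65).

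Recurrent cells had higher histone gene signals than residual cells. Of 39 members 12 rose and 0 fell, where 5.78% of all genes were called, 3.58% as higher and 2.19% as lower, and 16 members had no overlap between the groups with recurrent cells higher, against 8.18% of all genes. H2bc7 rose by 5.30 (SE 0.32, limma adjusted p = 4.03e-06); since its residual arrays were at background, the rise may be larger, as may those of H2ac4 and H3c10. H2bc15 rose by 4.31, H2ac4 by 4.17, H3c10 by 3.74 and H2bc13 by 2.76, with limma adjusted p from 1.93e-06 to 0.000145. This comparison and the first share the 3 residual arrays, so they are not independent of each other.

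Smaller rises were those of H2ac22 (2.15), H2ac20 (2.15), H2ac21 (2.12), H2ac10 (2.06), H2bc18 (1.25), H2bc3 (0.99) and H1f3 (0.97). The calls of H2bc18, H2ac21, H2bc3 and H1f3 were lost when some arrays were left out. H2bc18 lost it without residual replicate 1 (limma adjusted p = 0.0698) or 2 (adjusted p = 0.0562). H2ac21 (adjusted p = 0.0492) lost it without primary 1, 3 or 4, any 1 residual array, or recurrent 1, 2 or 3, with adjusted p from 0.0564 to 0.164. H2bc3 (adjusted p = 0.0457) lost it without primary 1, 3 or 4, residual 2 or 3, or any 1 recurrent array, from 0.0540 to 0.136. H1f3 (adjusted p = 0.0327) lost it when any 1 residual array was left out, or without recurrent 1, 3 or 4, from 0.0555 to 0.110.

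H1f1 did not pass in that comparison (0.79, limma adjusted p = 0.0787), nor did H1f2 (1.36, adjusted p = 0.0521), whose arrays were 8.77, 8.04, 9.12 and 9.07 in recurrent cells. Without primary replicate 2 H1f1 passed (limma adjusted p = 0.0117). H1f2 passed without residual replicate 3 (adjusted p = 0.0125), without recurrent replicate 2 (adjusted p = 0.0284) and in 3 other settings (adjusted p from 0.0351 to 0.0478). H2ac6 passed without residual replicate 3 (limma adjusted p = 0.0387). H4c12 was 8.26, 7.88, 8.30 and 7.57 and differed by 0.56 (95% interval 0.053 to 1.06, adjusted p = 0.204). In primary cells array 2 was the highest of the 4 for 12 of the 13 members that fell, H1f3 being the exception, where it was so for 31.1% of all genes. In recurrent cells array 2 was the lowest for 10 of the 13, against 23.2% of all genes. Without primary array 2, 12 members still fell.

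**Figure D3:**
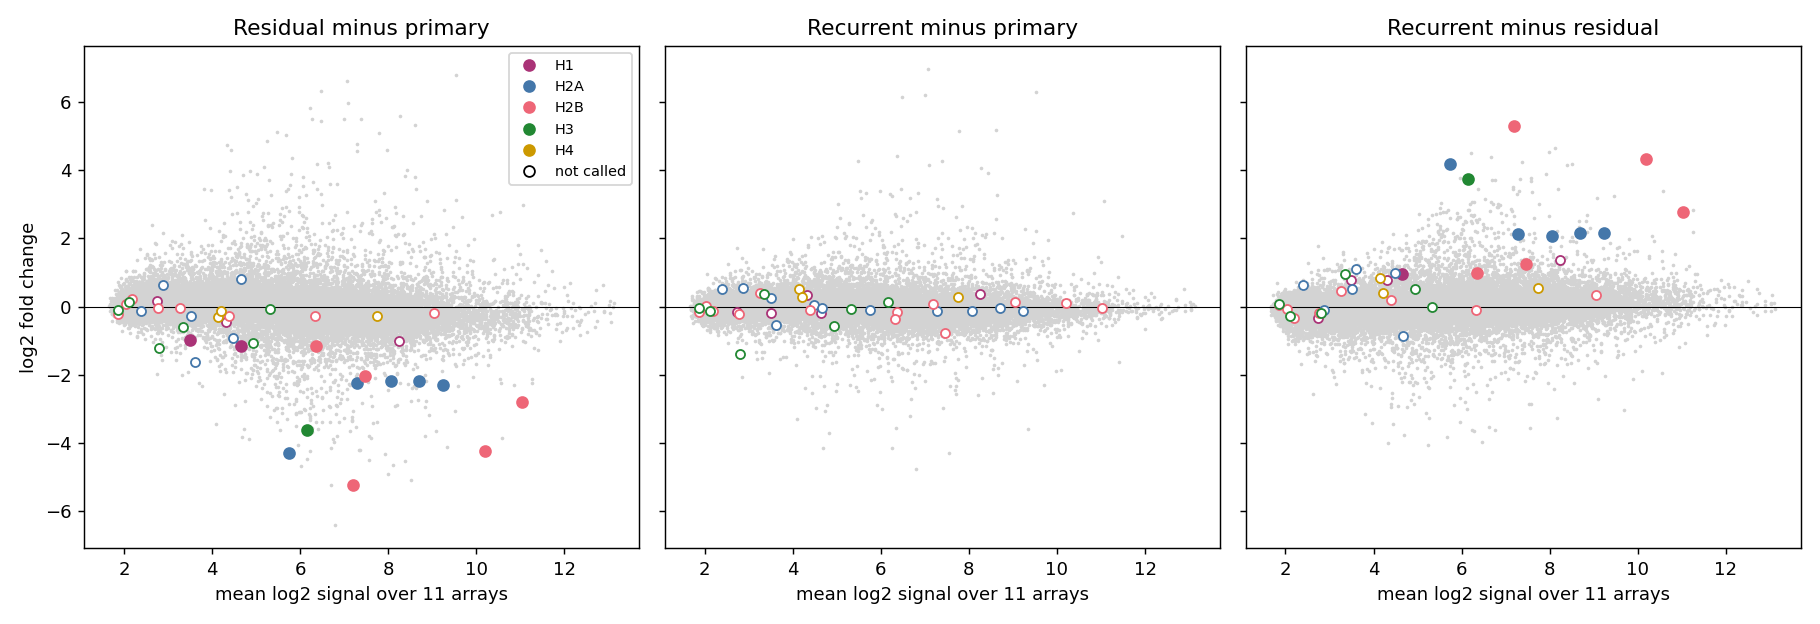
Log2 fold change (vertical axis) against mean log2 signal over the 11 arrays (horizontal axis) for all 23835 genes (grey) and the 39 histone genes (coloured by family, filled where called) in the 3 comparisons. Called histone genes lie below 0 in residual minus primary cells, from -5.22 to -0.96, above 0 in recurrent minus residual cells, from 0.97 to 5.30, and none is filled in recurrent minus primary cells.

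Other genes of the histone pathway were read from lists chosen by their known roles, with earlier results of these data known. Over all genes, 7.61% were called as lower and 4.81% as higher in residual against primary cells. In recurrent against residual cells 3.58% were called as higher, and in recurrent against primary cells 1.8% in either direction. Among 16 genes that couple histone transcription to the cell cycle, 3 fell in residual cells: Ccna2, the S and G2 phase cyclin, with a log2 fold change of -4.32, the transcription factor E2f1 with -0.90 and Ccne2, a cyclin of S phase entry, with -0.71. Npat, the coactivator of histone gene clusters, differed by 0.029 (limma adjusted p = 0.945). In recurrent against residual cells 3 of 16 rose, with log2 fold changes of 3.89 for Ccna2, 0.65 for E2f1 and 0.92 for Ccne2.

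Of 24 genes of histone mRNA 3′ ends and turnover, 5 fell and 0 rose in residual cells, where 7.61% of all genes fell and 4.81% rose. The list's median was -0.33. Slbp, which binds the stem-loop, fell by 0.84 (limma adjusted p = 0.00676). The other 4 had log2 fold changes of -1.78 for Snrpf, -0.74 for the cap-binding Ncbp1, -0.58 for the cleavage factor Cstf2 and -0.56 for Snrpd3. In recurrent against residual cells Slbp rose by 0.67 and Snrpd3 by 0.48, 2 of 24, against 3.58% of all genes. Tut4, a uridylyltransferase, rose in recurrent against primary cells by 1.07 (limma adjusted p = 0.0196).

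Histone chaperones, which carry new histones to DNA, fell in larger number, 13 of 28 in residual cells, against 7.61% of all genes. Their median was -0.55. Log2 fold changes were -2.98 for Asf1b, -1.84 and -1.64 for the chromatin assembly subunits Chaf1b and Chaf1a, and -1.33 for Nasp, which binds H1 and H3 with H4. In recurrent against residual cells 11 of 28 rose, Asf1b by 2.77 among them, against 3.58% of all genes.

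Histones listed here as replication-independent, made throughout the cycle or for special chromatin, fell in 4 of 19 cases in residual cells, against 7.61% of all genes. How each is expressed over the cycle was not tested. Cenpa, the centromere histone, fell by 3.39. The others had log2 fold changes of -1.68 for H2ax, known from DNA damage signalling, -0.90 for Macroh2a1 and -0.61 for H2aj. The list's median was -0.025, against -0.44 over the histone members. Both hold genes at or under the background range on every array: H1f8, H2bl1, H1f7 and Hils1 in the list, and 9 of the 39 members. H1f10 rose in recurrent against primary cells by 0.85 (limma adjusted p = 0.0475).

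Genes of S phase and DNA replication gave 38 falls and 1 rise of 50 in residual cells, where 7.61% of all genes fell and 4.81% rose. The list's median was -1.05. Mcm6, of the replicative helicase, fell by 3.33. Log2 fold changes were -3.27 for Rrm2, which makes deoxynucleotides, -3.07 for Gins2 and -2.93 for Uhrf1. The nucleoside transporter Slc29a1 rose by 1.42. In recurrent against residual cells 33 of 50 rose, against 3.58% of all genes.

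**Figure D4:**
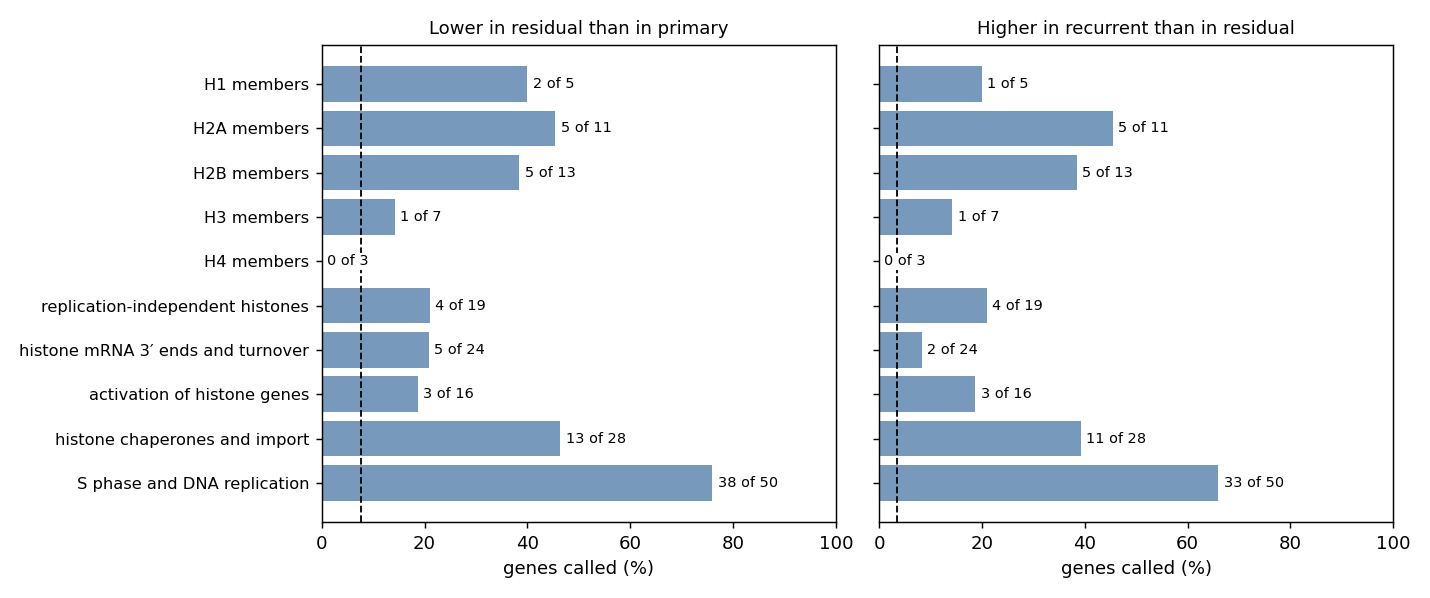
Share of genes called (horizontal axis, percent) in each histone family and in lists of related genes (vertical axis), as lower in residual than in primary cells (left) and higher in recurrent than in residual cells (right), with the number called of the number measured beside each bar. Dashed lines mark the share of all genes called in that direction, 7.61% and 3.58%; H1, H2A, H2B and H3 lie above them on both sides, H1 with 2 of 5 and 1 of 5 genes and H3 with 1 of 7 on each side, and 0 of 3 H4 genes were called.

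Markers of some cell types moved as well. Over 12 fibroblast genes the mean log2 signal was 6.14 to 6.75 on primary, 8.36 to 9.56 on residual and 8.24 to 9.03 on recurrent arrays. In residual against primary cells 10 of 12 rose, where 4.81% of all genes were called as higher. In recurrent against primary cells 7 of 12 rose, where 1.8% of all genes were called in either direction. Over 11 macrophage and monocyte genes the mean log2 signal was 5.94 to 6.62, 5.03 to 5.79 and 5.36 to 6.27 on these arrays. In residual cells 4 of 11 fell, against 7.61% of all genes. Over 12 luminal and basal epithelial genes, 2 rose and 3 fell in residual cells, against 4.81% and 7.61% of all genes. The keratins Krt8 (-1.67) and Krt18 (-2.32) and the claudin Cldn3 (-1.62) fell, and Krt14 (2.73) and Cldn4 (0.72) rose. The other 7 did not pass, among them the luminal Epcam (1.33) and Krt19 (0.75) and the basal Krt5 (0.22) and Trp63 (-0.035). The primary means of Epcam, Krt19 and Krt5 lay in the background range. Of 8 endothelial and 10 lymphocyte genes 0 were called by limma in each comparison, with 1 and 3 at an unadjusted p under 0.05 in residual against primary cells. Their mean levels were 3.41 to 4.07 for the endothelial and 3.13 to 3.63 for the lymphocyte genes over all arrays. Which cells in the GFP plus fraction gave these marker signals was not tested. Nor was any part of other cells in the histone values.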

How the data were processed

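Total RNA was labelled as biotinylated cRNA and hybridised to Affymetrix arrays. The authors deposited log2 values made with RMA in R 3.0.2, per the submitters' processing notes, ranging from 1.10 to 13.3. The probe annotation and the priming of the cRNA are not given in the sources used here, so how stem-loop mRNAs were read was not tested. Values were used as deposited. Of the probe sets 23281 were named by the platform table, 556 through RefSeq (GRCm38.p6) and 642 not at all.

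A 3-group model was fitted to all 11 arrays with limma 3.58.1 in R 4.3.3, with Benjamini-Hochberg adjustment over 23835 genes, and was tested on simulated data. The members and lists were chosen with earlier results of these data known. Genes given in full were, per family, the 2 brightest, up to 3 called in residual against primary cells and up to 2 in each other comparison with the largest change, and any called against its family; other members named were chosen after their values were seen. Same-numbered arrays of different groups did not vary together (0 of 10 pairs above r = 0.1), and 0 pairs of arrays were identical. Alternatives were other normalizations, spread estimates, thresholds and a dim filter, and leaving out each array. Figures used matplotlib 3.10.9 and pandas 2.3.3.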

Additional observations from a re-analysis of the deposited data

Results flagged for a closer look

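In 78 groups of 4 arrays, 1 array stood apart from the other 3 in 4 cases by Dixon's test, where chance gives about 1 in 20. H1f1 was 4.55 on primary array 2 against 3.55 to 3.62 on the others. H2ac4 was 7.66 on primary array 2 against 6.65 to 6.76. H2ac6 was 4.37 on recurrent array 2 against 4.85 to 4.93. H1f6, in the background range, was 2.19 on recurrent array 1 against 2.72 to 2.74.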

How the results depend on the processing

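The number of members called stayed within 1.5 times its value in each alternative run. Leaving out 1 array gave 12 to 14 called in residual against primary cells, 0 in recurrent against primary and 8 to 13 in recurrent against residual cells; other settings gave 10 to 14, 0 and 8 to 13. With the replicate number as a block, where the numbers do not pair the samples, 12, 0 and 11 were called, and H1f1 was lost in residual against primary cells (adjusted p = 0.0585) and H1f3 in recurrent against residual cells (0.0946). In recurrent against residual cells the fit of only the 2 groups lost H1f3 (0.0699), H2ac21 (0.128) and H2bc3 (0.115), as did array weights (0.076, 0.054 and 0.0607). A second quantile normalization lost H2ac21 (0.0548) and H2bc3 (0.0549), as did scaling to one interquartile range (0.0518 and 0.0535). Of 837 alternative values of the members given in full, 773 kept direction and side of the threshold, 27 no longer passed, 7 newly passed and 30 changed sign, all of them uncalled. Sign changes between recurrent and primary cells were H2ac22 at 0.025 on a second quantile normalization, H2bc13 at 0.011 on arrays scaled to one interquartile range, and H3c14 at 0.090 with array weights. H3c14 was also 0.15 with array weights in residual against primary cells and 0.027 with centred arrays in recurrent against residual cells. Leaving out 1 array moved the recurrent minus primary value over 0 for H1f1 (-0.27 to 0.067), H2ac20 (-0.39 to 0.064), H2ac21 (-0.56 to 0.21), H2ac22 (-0.13 to 0.13), H2ac4 (-0.26 to 0.16), H2bc13 (-0.12 to 0.037), H2bc15 (-0.0092 to 0.18), H2bc7 (-0.051 to 0.30), H3c10 (-0.16 to 0.33) and H3c14 (-0.37 to 0.36). It did so for H3c14 (-0.38 to 0.36) and H4c9 (-0.37 to 0.0078) in residual minus primary cells, and for H3c14 (-0.30 to 0.32) in recurrent minus residual cells. The cause was not tested. Signals in the background range have no readable order, and fold changes that reach into it may be understated.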
